A study of Homo sapiens with 6 samples.

Results

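The cohesin complex and the proteins that protect or cut it were examined in the ARPE-19 cell line, an established human retinal pigment epithelial line. The 10 genes were taken by symbol and are 10 of the 30618 genes with counts, and all 10 were among the 16749 genes tested. They comprise 5 genes of the cohesin core (SMC1A, SMC3, RAD21, STAG1 and STAG2) and 5 mitotic regulators (SGO1, SGO2, ESPL1, PTTG1 and CDCA5). All cells were kept in 50 mM glucose. The NC group received a non-targeting control siRNA and the siEIF1 group an siRNA against EIF1, the translation initiation factor that takes part in start codon selection, both by lipid transfection. Each group had 3 biological replicates, and no library from normal glucose or from untransfected cells entered the comparison. The question was whether the transcripts of the ring and those of its mitotic regulators moved together when EIF1 was knocked down.

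Cohesin is a ring that holds sister chromatids together from DNA replication until anaphase and also shapes chromatin loops in interphase. SMC1A and SMC3 form its long arms, RAD21 is the kleisin subunit that closes the ring, and STAG1 or STAG2 binds the kleisin. CDCA5, also called sororin, keeps the ring on replicated DNA by countering the release factor WAPL. SGO1 and SGO2 are the shugoshins, which bring the phosphatase PP2A to the centromere and so shield cohesin there. At anaphase ESPL1, the protease separase, cuts RAD21 once its inhibitor PTTG1, known as securin, has been degraded. The core is made throughout the cell cycle, whereas the regulators are known as genes whose transcripts rise towards G2 and mitosis.

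EIF1 itself was at 294, 281 and 281 FPKM (fragments scaled by transcript length and by the mapped fragments of the library) in the NC libraries and at 24.3, 22.7 and 23.5 FPKM in the siEIF1 libraries. Its log2 fold change, siEIF1 over NC, was -3.58 with a standard error (SE) of 0.0549 (adjusted p = 1.08e-13, edgeR quasi-likelihood test), so every library matched its label. The libraries held 26499929 to 31431479 counts. Of 11 markers of retinal pigment epithelium, 4 (BEST1, OTX2, MITF and SERPINF1) lay above 1 FPKM, TYR and TYRP1 lay at 0.12 FPKM or less, and RPE65 and TTR were not analysed here. RLBP1, LRAT and PMEL also lay under 1 FPKM in every library. The 9 markers with values summed to 87.2 to 96.8 FPKM in NC and 66.2 to 89.8 FPKM in siEIF1. Most of this sum was BEST1, at 60.5 to 70.8 FPKM in NC and 38.8 to 62.1 FPKM in siEIF1. The gene length recovered from the counts and FPKM of BEST1 was 4.81 times its canonical transcript, against a median of 1.61 over 14725 genes. Overlap of BEST1 exons with other genes was not examined, and the strand setting of the counting is not given, so its level may include reads of other genes. Of the 7 retinal pigment epithelium markers tested 0 were lower and 1 was higher, RLBP1, with a log2 fold change of 1.55 (adjusted p = 0.00102, edgeR). RLBP1 rested on few reads, 16, 11 and 17 counts in NC and 49, 42 and 49 in siEIF1. Epithelial markers summed to 426.1 to 449.9 FPKM in NC and 499.6 to 521.9 FPKM in siEIF1. Of the 3 tested 2 were higher at an adjusted p under 0.05 in edgeR, and CDH1 and EPCAM, at 0.04 FPKM or less, were not tested. Mesenchymal markers summed to 855.4 to 878.7 FPKM in NC and 1034 to 1099 FPKM in siEIF1, with 3 of 5 higher by that measure. Over all tested genes 10.2% were higher and 10.4% were lower. The part of these 3 lists in the results was not tested. The endothelial markers summed to at most 0.03 FPKM in any library and the blood cell markers to at most 0.02 FPKM. The 5 proliferation markers MKI67, TOP2A, PCNA, MCM2 and CCNB2 were all lower at an adjusted p under 0.05 in edgeR, with a median log2 fold change of -0.87 and summed levels of 81.2 to 84.7 FPKM in NC and 62.2 to 64.7 FPKM in siEIF1. PCNA made up most of these sums, with means of 67.04 FPKM in NC and 54.55 FPKM in siEIF1. The log2 fold changes were -1.60 for MKI67, -1.54 for TOP2A, -0.87 for MCM2, -0.50 for CCNB2 and -0.28 for PCNA. The 5 proliferation markers moved in the same direction as the mitotic regulators described next, and their part in those results was not tested. In bulk RNA, fewer cells in the phase that makes a transcript and less of that transcript per cell cannot be told apart.

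The promoters of the 5 regulators were searched for short motifs. Genes that peak in G2 and mitosis often carry a cell cycle homology region (CHR) close to the start site, with TTTGAA as its canonical form. The printed stretches are the 30 bases around the CHR form nearest the start site, with that form in capitals, and are shown so that the forms, which were accepted after these sequences had been seen, can be compared. They come from RefSeq on GRCh38.p14 and read 5′ to 3′ on the strand of the gene, which for SGO1 is the reverse strand at chr3:20186192-20186221 and for CDCA5 the reverse strand at chr11:65084049-65084078. The others lie on the forward strand, SGO2 at chr2:200526165-200526194, ESPL1 at chr12:53268256-53268285 and PTTG1 at chr5:160421814-160421843.
SGO1: gaggcggaaaatTTCGAAtgtggcggcggt
SGO2: acggctgtggcgTTTAAAcccaagccgcag
ESPL1: cagccgcggataTTTGAAaggagggtctgg
PTTG1: cgcgagttgtggTTTAAAccaggagtgcgc
CDCA5: cagggcgggtaaTTCGAAcgttttttgcag

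The capitals begin 3 bases before the start site in SGO1, 30 before in SGO2, 31 before in ESPL1, 29 before in PTTG1 and 26 before in CDCA5. Only ESPL1 among these 5 has the canonical form, which is found in 4.63% of the 34943 RefSeq promoters within 50 bases of the start site on either side. When the variants TTCGAA and TTTAAA and also CTTGAA were accepted, 10.9% of all promoters held a form in those 100 bases, against 5 of 5 regulators and 0 of the 4 core genes with a RefSeq promoter. Since the forms and the window were chosen after the promoter sequences had been seen, this count is a description of these promoters and no test. In the full window, from 250 bases before to 50 after the start site, the share of all promoters was 32.2%, and SMC3 joined the 5 regulators with a canonical form on the reverse strand, 151 bases before its start site. RAD21 had no entry among these promoters, and the STAG2 window starts from a site 352 bases from the canonical transcript start. Both strands were searched.

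The CCAAT box, bound by the factor NF-Y, was found in the full window of SGO1, SGO2, ESPL1 and PTTG1 and also of STAG1 and STAG2, against 34.6% of all promoters. An E2F form, meaning TTTCCCGC or its variant TTTGGCGC or else TTTGCCGC or lastly TTTCGCGC, was found in the full window of CDCA5, SMC1A, STAG1 and STAG2, against 3.3% of all promoters. CDCA5 was thus the regulator without a CCAAT box and with an E2F form. A match of letters is a description of these windows, and binding was not measured.

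**Figure D1:**
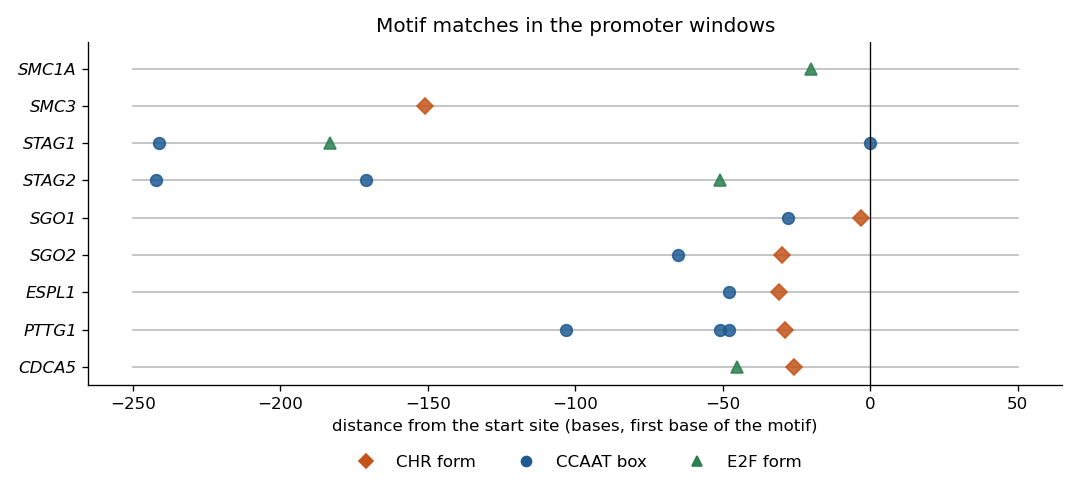
Positions of motif matches in the promoters of the 9 genes with a RefSeq entry. The horizontal axis is the distance of the first base of a match from the start site in bases, each line is 1 promoter from 250 bases before to 50 after the start site, and the symbols mark CHR forms, CCAAT boxes and E2F forms. The CHR forms of the 5 regulators lie 3 to 31 bases before the start site, and the form of SMC3 lies 151 bases before it.

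After EIF1 knockdown 8 of the 10 genes were lower at an adjusted p under 0.05 and 0 were higher, while 10.4% of all tested genes were lower and 10.2% were higher by that measure in edgeR. The mitotic regulators fell further than the core. SGO1, SGO2 and CDCA5 also passed the fold change limit of 0.5, a call that 1.31% of all tested genes reached in this direction. The NC and siEIF1 libraries did not overlap in library-scaled counts for the same 8 genes, against 18.9% of tested genes that were lower without overlap. The 10 genes were chosen with earlier results of these data known, so these counts are a description and no test. The median log2 fold change was -0.21 over the core and -1.03 over the regulators, a difference of -0.82, with 0.00 over all tested genes. This difference became -0.58 and -0.22 on log2(FPKM + 0.1) and log2(FPKM + 1), scales that compress genes with low values. The intervals of 2 SE on each side of the log2 fold changes ran from -0.387 to 0.165 over the 5 core genes and from -2.51 to -0.601 over the 5 regulators, so the sets did not meet. Summed over the core, the FPKM were 36.3, 35.3 and 35.3 in NC and 32.0, 29.9 and 33.4 in siEIF1. Summed over the regulators, they were 12.4, 12.98 and 12.1 in NC and 6.5, 6.58 and 6.37 in siEIF1. PTTG1 made up most of the regulator sum, with means of 8.92 FPKM in NC and 5.15 FPKM in siEIF1.

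**Figure D2:**
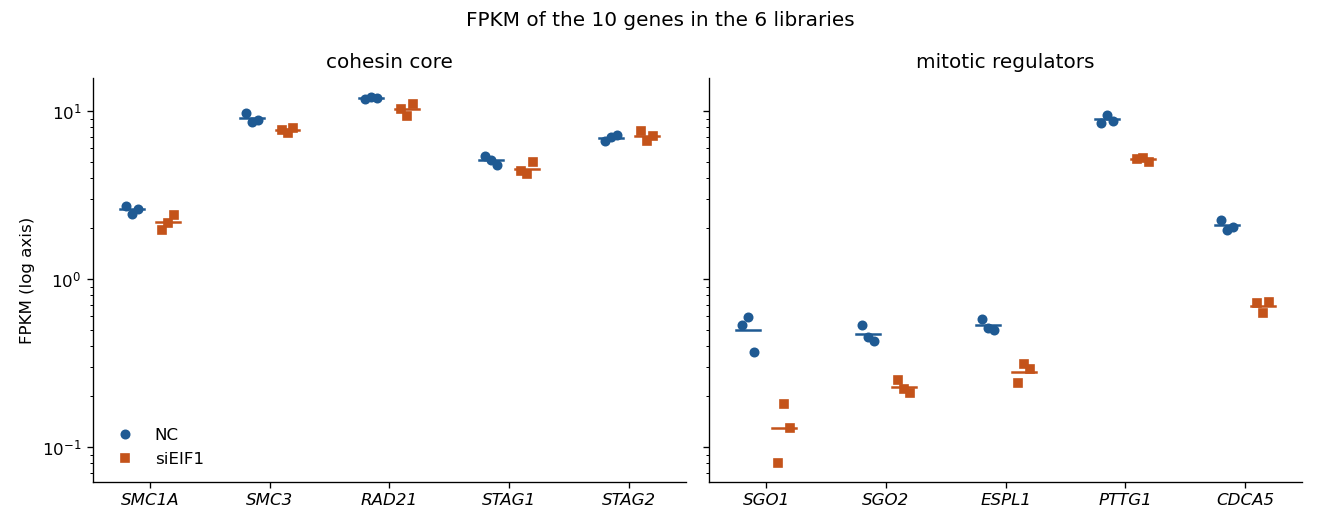
FPKM of the 10 genes in the 6 libraries on a log axis, with the cohesin core on the left and the mitotic regulators on the right. Circles are NC libraries, squares are siEIF1 libraries and bars are group means. The siEIF1 squares lie below the NC circles for all 5 regulators, with group means at 26.2% to 57.8% of NC, whereas the groups lie close together for the core and overlap for STAG1 and STAG2.

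SMC3 (ENSG00000108055.10, chr10:110567684-110606048, forward strand) and SMC1A (ENSG00000072501.19, chrX:53374149-53422728, reverse strand) encode the ATPase arms of the ring. SMC3 was at 9.79, 8.59 and 8.82 FPKM in NC and at 7.71, 7.42 and 7.96 FPKM in siEIF1. The highest siEIF1 library lay below the lowest NC library. SMC3 had a log2 fold change of -0.22 with an SE of 0.0577 (adjusted p = 0.0174, edgeR), and its FPKM stood at 84.9% of NC. SMC1A was at 2.74, 2.44 and 2.63 FPKM in NC and at 1.96, 2.17 and 2.40 FPKM in siEIF1, again without overlap but with a gap as narrow as 2.40 to 2.44. Its log2 fold change was -0.24 with an SE of 0.0738 (adjusted p = 0.0350, edgeR). RAD21 (ENSG00000164754.15), the kleisin that separase cuts, was at 11.8, 12.2 and 11.9 FPKM in NC and at 10.3, 9.4 and 11.03 FPKM in siEIF1, all lower. Its log2 fold change was -0.21 with an SE of 0.0531 (adjusted p = 0.0147, edgeR).

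These 3 differences were small, and whether each passed the adjusted p of 0.05 changed with the libraries fitted and with the method. The log2 fold change ran from -0.25 to -0.16 for SMC3, from -0.25 to -0.16 for RAD21 and from -0.30 to -0.17 for SMC1A over the libraries left out. SMC3 lost its adjusted p under 0.05 without NC replicate 1 (0.0701) or siEIF1 replicate 2 (0.0677). RAD21 lost it without NC replicate 2 (0.0623) or siEIF1 replicate 2 (0.0791). SMC1A lost it without NC replicate 1 (0.132), NC replicate 3 (0.0925), siEIF1 replicate 1 (0.117) or siEIF1 replicate 2 (0.0775), all by edgeR. With limma SMC1A did not pass on log2(FPKM + 1) (adjusted p = 0.116) or on log2(FPKM + 0.1) (adjusted p = 0.111). SMC3 and RAD21 passed on both scales. On log2(FPKM + 1) without a filter they did not pass (adjusted p = 0.0976 for SMC3 and 0.11 for RAD21, limma). The sign of the 3 log2 fold changes stayed negative in each of these settings.

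STAG1 and STAG2 encode alternative subunits, and a cohesin ring carries 1 of them. STAG1 (ENSG00000118007.13, chr3:136336236-136752403, reverse strand) was at 5.38, 5.11 and 4.78 FPKM in NC and at 4.42, 4.23 and 4.96 FPKM in siEIF1. The third siEIF1 library lay inside the NC range. STAG1 had a log2 fold change of -0.15 with an SE of 0.0650 (adjusted p = 0.132, edgeR), and it reached -0.20 with an adjusted p of 0.042 without siEIF1 replicate 3. The gene shares 1661 exon bases, 21.2% of its own, with PCCB on the opposite strand, and the strand setting of the counting is not given in the sources used here. STAG2 (ENSG00000101972.19, chrX:123960212-124422664, forward strand) was at 6.66, 7.01 and 7.19 FPKM in NC and at 7.64, 6.64 and 7.06 FPKM in siEIF1, with both ranges overlapping. Its log2 fold change was 0.05 with an SE of 0.0564 (adjusted p = 0.569, edgeR). The interval of 2 SE on each side ran from -0.0601 to 0.165, which bounds any fall or rise of STAG2 to a small size. The sign of STAG2 turned to -0.0019 without siEIF1 replicate 1.

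SGO1 (ENSG00000129810.15, chr3:20160593-20186206, reverse strand), the shugoshin that protects centromeric cohesin in mitosis, had the largest fall of the 10. It was at 0.53, 0.59 and 0.37 FPKM in NC and at 0.08, 0.18 and 0.13 FPKM in siEIF1. The groups did not overlap, and every siEIF1 library lay at less than any NC library. The log2 fold change of SGO1 was -1.91 with an SE of 0.303 (adjusted p = 0.000647, edgeR), a level 3.75 times lower. These values rest on few reads, 64, 78 and 47 counts in NC and 11, 25 and 18 in siEIF1. The coefficient of variation between libraries was 24.3% in NC and 41.8% in siEIF1, where counting alone gives 12.6% and 23.6%. Leaving out 1 library at a time moved the log2 fold change of SGO1 between -2.24 and -1.63. The antisense gene SGO1-AS1 shares 593 of its exon bases and held 0 to 4 counts per library.

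SGO2 (ENSG00000163535.18, chr2:200510008-200584096, forward strand), the other shugoshin, was at 0.53, 0.45 and 0.43 FPKM in NC and at 0.25, 0.22 and 0.21 FPKM in siEIF1. Its counts were 109, 101 and 93 in NC and 60, 52 and 49 in siEIF1, so the groups were well apart. The log2 fold change of SGO2 was -1.03 with an SE of 0.168 (adjusted p = 0.000801, edgeR), close to the fold change limit. Without NC replicate 1 it was -0.93 and without siEIF1 replicate 3 it was -0.97, and SGO2 was then no longer past the limit of 0.5 although its adjusted p stayed at 0.00653 or less.

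CDCA5 (ENSG00000146670.10, chr11:65066300-65084164, reverse strand), the sororin gene, was at 2.26, 1.96 and 2.04 FPKM in NC and at 0.72, 0.63 and 0.73 FPKM in siEIF1. The 3 siEIF1 libraries lay close to each other and far below NC, at 33.2% of its mean. CDCA5 had a log2 fold change of -1.56 with an SE of 0.113 (adjusted p = 1.16e-06, edgeR), and it stayed between -1.61 and -1.50 when any 1 library was left out.

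ESPL1 and PTTG1 form the separase and securin pair. ESPL1 (ENSG00000135476.12, chr12:53268299-53293638, forward strand) was at 0.58, 0.51 and 0.50 FPKM in NC and at 0.24, 0.31 and 0.29 FPKM in siEIF1. PTTG1 (ENSG00000164611.13, chr5:160421855-160428739, forward strand) was at 8.54, 9.47 and 8.76 FPKM in NC and at 5.21, 5.24 and 5.01 FPKM in siEIF1. For both genes all siEIF1 libraries lay below all NC libraries. The log2 fold change was -0.89 with an SE of 0.143 for ESPL1 (adjusted p = 0.000723, edgeR) and -0.77 with an SE of 0.0753 for PTTG1 (adjusted p = 1.31e-05, edgeR). Neither passed the fold change limit of 0.5, and both were called when the limit on the estimate was 1.5-fold. An edgeR test of the change itself against 1.5-fold called SGO1 and CDCA5 and not ESPL1, PTTG1 or SGO2. Of 16749 tested genes, 472 were called lower with the 1.5-fold limit on the estimate and 171 by the test against 1.5-fold. PTTG2 and PTTG3P, close copies of PTTG1 that could share reads with it, were not analysed here.

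In the order of FPKM, RAD21 was highest in both groups and the shugoshins and ESPL1 were lowest. In NC the order was RAD21, SMC3, PTTG1, STAG2, STAG1, SMC1A, CDCA5, ESPL1, SGO1 and SGO2, and the ranges overlapped between SMC3 and PTTG1 and among ESPL1, SGO1 and SGO2. In siEIF1 PTTG1 stood below STAG2, and SGO1 stood below SGO2 without overlap. The place of PTTG1 depends on the gene length behind its FPKM. That length, recovered from counts and FPKM, was 3.38 times its canonical transcript, against a median of 1.61 over 14725 genes. The canonical transcripts have 715 bases for PTTG1 and 3660 for RAD21. By counts per kilobase of these, PTTG1 would stand above RAD21 in every NC library and below it in every siEIF1 library.

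Ratios between genes within a library do not depend on the scaling of that library. Their size depends on the gene lengths behind the FPKM, so only the comparison between groups is read. With 3 libraries against 3, a two-sided exact permutation test cannot give a p under 0.1, and 6 ratios were compared. CDCA5 to SMC3, the FPKM of sororin over that of 1 arm of the ring, was 0.231, 0.228 and 0.231 in NC and 0.0934, 0.0849 and 0.0917 in siEIF1. The groups did not overlap, and the siEIF1 mean stood at 39.1% of NC (exact permutation p = 0.1, adjusted p = 0.3). SGO1 to SGO2 was 1.0, 1.31 and 0.86 in NC and 0.32, 0.818 and 0.619 in siEIF1 (exact permutation p = 0.1, adjusted p = 0.3). Its groups did not overlap, but the gap between 0.86 and 0.818 was small beside the spread within siEIF1.

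ESPL1 to PTTG1, the FPKM of separase over that of securin, was 0.0679, 0.0539 and 0.0571 in NC and 0.0461, 0.0592 and 0.0579 in siEIF1, with overlapping groups (exact permutation p = 0.6, adjusted p = 0.9). The recovered gene length was 1.65 times the canonical transcript for ESPL1 and 3.38 times for PTTG1. Protein was not measured in these libraries. STAG1 to STAG2 was 0.808, 0.729 and 0.665 in NC and 0.579, 0.637 and 0.703 in siEIF1, also overlapping (exact permutation p = 0.2, adjusted p = 0.4). Within the ring, SMC1A to SMC3 had means of 0.287 in NC and 0.283 in siEIF1 and RAD21 to SMC3 had means of 1.32 and 1.33, with overlap in each case.

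**Figure D3:**
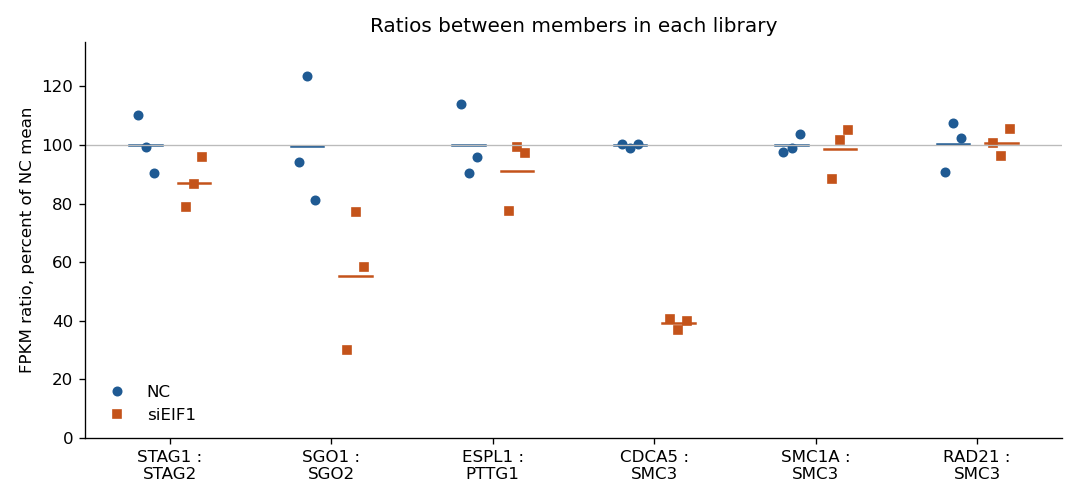
Ratios of FPKM between pairs of the 10 genes in each library, as a percentage of the NC mean of that ratio. Circles are NC libraries, squares are siEIF1 libraries and bars are group means. CDCA5 to SMC3 lies near 39.1% of NC in siEIF1, SGO1 to SGO2 lies lower with wide spread, and the other 4 ratios overlap between the groups.

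A list of 36 other genes of the cohesin pathway was examined by role, and 33 of them were tested. Of these, 15 were lower and 4 were higher at an adjusted p under 0.05 in edgeR and 14 did not pass, with 9 past the fold change limit and a median log2 fold change of -0.14. Over all tested genes 10.4% were lower, 10.2% were higher and 1.31% were lower past the limit. The count of higher genes was near that background and the counts of lower genes were above it. This list was chosen with earlier results of these data known, so these counts are a description and no test. The factors that load, release and remodel cohesin on interphase chromatin did not pass. The loaders NIPBL and MAU2 had log2 fold changes of 0.05 and -0.02, the release factor WAPL -0.13 (adjusted p = 0.136, edgeR), the regulatory subunits PDS5A and PDS5B -0.09 and -0.02, the SMC3 deacetylase HDAC8 -0.07 and the boundary factor CTCF -0.09.

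Genes that establish cohesion during replication were lower. ESCO2, the S-phase acetyltransferase of SMC3, had 39, 56 and 55 counts in NC and 19, 16 and 22 in siEIF1. ESCO2 had a log2 fold change of -1.50 with an SE of 0.249 (adjusted p = 0.000902, edgeR), whereas its paralog ESCO1, which also acts outside S phase, was at -0.04 (adjusted p = 0.808, edgeR). All 6 tested genes of cohesion establishment at the replication fork were lower at an adjusted p under 0.05 in edgeR, against 10.4% of all tested genes. WDHD1, which links the helicase to the polymerase, had a log2 fold change of -1.38 and DSCC1, of the alternative clamp loader, one of -1.20, and both passed the fold change limit. CHTF18, of the same loader, was at -0.84, the helicase DDX11 at -0.63 and the fork protection pair TIMELESS and TIPIN at -0.84 and -0.87. TIPIN shares 21.1% of its exon bases with the processed pseudogene RPL9P25 on the same strand, which was not analysed here. CHTF8 was not tested, and 84.6% of its exon bases are shared with DERPC.

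The kinases that act at the mitotic centromere and the genes that lead to separase activation were lower in all 7 cases. Over all tested genes 10.4% were lower at an adjusted p under 0.05 in edgeR and 1.31% also passed the fold change limit. BUB1, which marks the centromere for shugoshin, was at 0.87, 1.03 and 0.68 FPKM in NC and at 0.29, 0.28 and 0.25 FPKM in siEIF1, with a log2 fold change of -1.63 and an SE of 0.175 (adjusted p = 2.87e-05, edgeR). HASPIN, the histone H3 kinase, had a log2 fold change of -1.35, PLK1, which promotes cohesin release from the arms, one of -1.10 and AURKB one of -0.67. HASPIN shares 15.3% of its exon bases with ITGAE on the opposite strand. CDK1 was at 3.63, 3.75 and 3.64 FPKM in NC and at 1.05, 1.26 and 1.14 FPKM in siEIF1, far apart, with a log2 fold change of -1.66. CDC20, the activator of the ubiquitin ligase that degrades securin, was at -1.17 and CCNB1, the mitotic cyclin, at -1.01. CCNB1 passed the fold change limit so narrowly that leaving out NC replicate 1, NC replicate 2, siEIF1 replicate 1 or siEIF1 replicate 3 ended that call, and CDC20 lost it without siEIF1 replicate 3.

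PP2A is the phosphatase that shugoshins recruit. Of its 9 subunit genes, 3 were higher, 1 was lower and 5 did not pass, beside 10.2% higher and 10.4% lower over all tested genes, and the count of 1 lower is near that background. The scaffold PPP2R1A was at 25.4, 26.6 and 27.2 FPKM in NC and at 33.4, 32.6 and 32.2 FPKM in siEIF1, with a log2 fold change of 0.33 and an SE of 0.0484 (adjusted p = 0.000358, edgeR). The B56 subunits PPP2R5A and PPP2R5D, the kind that binds shugoshin, had log2 fold changes of 0.26 and 0.17, and 31.5% of the exon bases of PPP2R5D overlap MEA1 on the opposite strand. The catalytic subunit PPP2CB was lower by a log2 fold change of -0.18 (adjusted p = 0.0143, edgeR).

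REC8, the kleisin that replaces RAD21 in meiotic cohesin, was the only other of the 33 genes that was higher. It was at 41.5, 47.0 and 46.7 FPKM in NC and at 56.2, 57.1 and 56.4 FPKM in siEIF1, and the siEIF1 libraries all lay above NC. The log2 fold change of REC8 was 0.35 with an SE of 0.0551 (adjusted p = 0.000619, edgeR). Per length, REC8 stood above RAD21 in every library, with a ratio of FPKM of 3.53, 3.86 and 3.93 in NC and 5.48, 6.07 and 5.11 in siEIF1. By counts per kilobase of the canonical transcript these ratios were 3.57, 3.91 and 3.98 in NC and 5.56, 6.15 and 5.18 in siEIF1. The other meiotic subunits were near 0, with SMC1B and RAD21L1 at 0.03 FPKM or less in every library and STAG3 at 0.12 FPKM or less. REC8 shares 39 exon bases, 1.01% of its own, with IPO4.

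**Figure D4:**
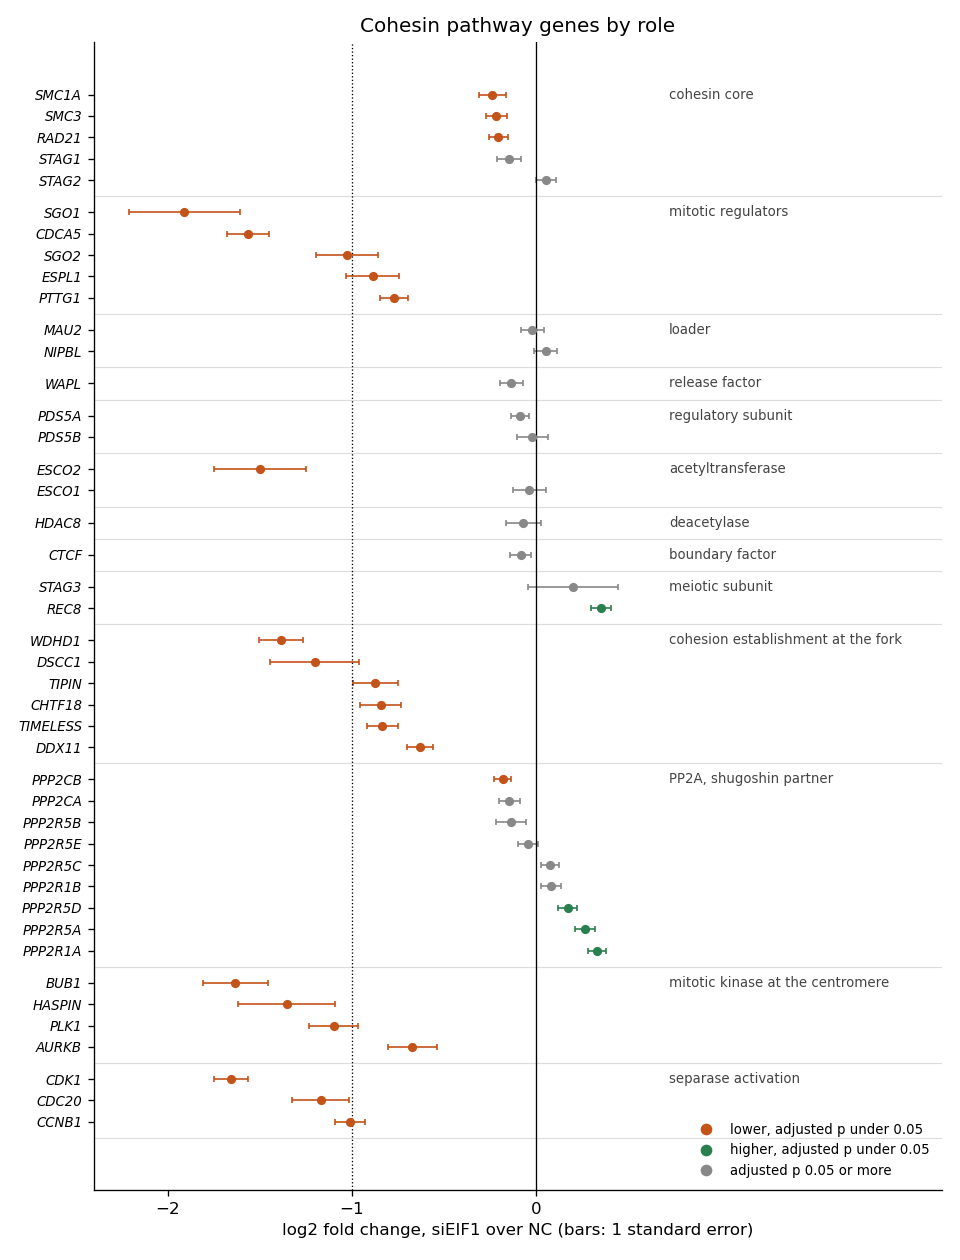
Log2 fold changes, siEIF1 over NC, of the 10 genes and the 33 other tested genes of the cohesin pathway, grouped by role. Points are edgeR estimates, bars are 1 SE on each side, the dotted line is a fold change of 0.5, and the colours mark an adjusted p under 0.05. The core lies between -0.24 and 0.05, the loaders between -0.02 and 0.05 and the PP2A subunits between -0.18 and 0.33, while the regulators, the fork genes, the centromere kinases and the separase activators lie between -1.91 and -0.63, and REC8 lies at 0.35.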

How the data were processed

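RNA-seq of ARPE-19 cells was analysed for 3 NC and 3 siEIF1 libraries, grouped by their titles. The authors prepared strand-specific mRNA libraries in parallel, sequenced 150 nt paired-end reads in a single run, trimmed them, dropped those under 16 nt and mapped them with HISAT2 to GRCh38, allowing 4 mismatches. They deposited raw counts of uniquely mapped reads per gene. The authors also deposited FPKM values, rounded and scaled by gene length and mapped fragments. The counting program, its strand setting and the annotation release are not given in the sources used here, so reads of overlapping genes may be shared. All 12 columns were matched to a library.

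Counts were fitted in edgeR 4.0.16 (R 4.3.3) with TMM factors, filterByExpr and the quasi-likelihood test, adjusted by Benjamini-Hochberg over 16749 genes. Calls needed both an adjusted p under 0.05 and a change of more than 2-fold up or to under 0.5 of NC. SE were taken from the F statistic. At 26499929 to 31431479 counts per library, the genes with fewest counts have the widest SE. Ratios of FPKM were compared by exact permutation tests in scipy 1.17.1. Alternatives were DESeq2 1.42.0, limma 3.58.1 on log2(FPKM + 1) and log2(FPKM + 0.1), other normalizations, filters and fold limits, the replicate block and leaving out each library. A further edgeR test (glmTreat) asked whether a change exceeded 1.5-fold. The scripts were tested on simulated data. Gene positions, exons and canonical transcripts came from GENCODE release 44 and promoters from RefSeq. The named genes were all 10 members, EIF1, and of the pathway list those called, those higher and the smallest p of each role. Other list members are named to complete a role. The members and lists were chosen with earlier results of these data known.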

Additional observations from a re-analysis of the deposited data

How the results depend on the processing

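The 5 mitotic regulators kept a negative log2 fold change and an adjusted p under 0.05 in all 15 alternative fits, with edgeR, DESeq2 and limma. Of the 10 genes, 3 were called lower, and this count was 0 with limma on log2(FPKM + 1), with or without a filter, and 5 at a fold limit of 1.5. For the pathway list the count of 9 became 1, 1 and 14 under these settings. Limma on log2(FPKM + 0.1) called 2 of the 10 genes and 6 pathway genes. The edgeR test against a 1.5-fold change called 2 of the 10 and 7 pathway genes. Over all genes, limma on log2(FPKM + 1) called 19 of 16748 lower, and 19 of 30275 without a filter. On log2(FPKM + 0.1) it called 149 of 16748. Of 16749 genes in edgeR, 219 were called lower in the main fit, 472 at the limit of 1.5 and 171 by the 1.5-fold test. Genes at low FPKM are compressed by the pseudocount. The number of the 10 genes with an adjusted p under 0.05 fell from 8 to 5 with limma on log2(FPKM + 1) without a filter. In that fit 815 of 30275 genes were lower by adjusted p, against 1744 of 16749 in the main fit. The difference of medians, regulators minus core, moved from -0.82 to -0.22 with limma on log2(FPKM + 1), with or without a filter, and to -0.58 with log2(FPKM + 0.1). When 1 library at a time was left out, 2 to 3 of the 10 were called, 5 to 9 had an adjusted p under 0.05 (5 without siEIF1 replicate 2), 7 to 9 pathway genes were called, 14 to 16 were lower by adjusted p, and the difference of medians ran from -0.92 to -0.74. In these fits 191 to 234 of 16932 to 17083 tested genes were called lower and 1124 to 1763 were lower by adjusted p. STAG2 reversed to -0.0019 without siEIF1 replicate 1, and its range over the libraries left out was -0.0019 to 0.08422. RLE and upper-quartile factors, DESeq2, both count filters and the replicate block each called the same 12 of the 43 tested genes of the 2 lists. Depth limits the precision for SGO1, HASPIN, ESCO2, DSCC1 and STAG3, which had 78 counts or fewer in every library.

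With the replicate number as a block, 3 of the 10 genes were called and 8 had an adjusted p under 0.05, 9 pathway genes were called, 16 were lower by adjusted p, the difference of medians was -0.82 and EIF1 was at -3.58. Of 16749 tested genes, 225 were called lower and 2128 were lower by adjusted p with this block. Same-numbered libraries correlated in their deviations at 0.149, 0.0946 and 0.128, so not every pair passed 0.1 and the numbers were not taken as pairs. Each library correlated best with its own number, which is a hint from the data and not part of the design.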
